A study of Mus musculus with 23 samples.

Results

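The 7 genes described here belong to the Ms4a (membrane-spanning 4A) family: Ms4a4a, Ms4a4b, Ms4a4c, Ms4a6b, Ms4a6c, Ms4a6d and Ms4a7. They were found by symbol among 47729 gene identifiers, and the annotation names 12 other Ms4a genes, which are described after them. The RNA came from spleen dendritic cells of wild type Balb/C mice, sorted from pools of mice that were either Untreated or given TLI, a treatment the sample labels do not spell out. The sort gates were CD8hi CD172- (DC1a), CD8Int CD172+ (DC1b), CD8lo CD172hi (DC2) and CD8- CD172lo (DC3). Each gate was sequenced from Untreated pools 1 and 2 (2 libraries a gate, 8 in all). After TLI there were pools 1 to 4 for DC1a, DC1b and DC3, and pools 1, 3 and 4 for DC2 (15 libraries). Within a treatment, libraries with the same pool number came from the same mice, so the gates of a pool are not independent. The study's methods call its mice adult but give an age only for other strains and genotypes, so no age is given here. By their labels, all Untreated libraries and TLI pools 1 and 2 were batch 1, and TLI pools 3 and 4 were batch 2.

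Ms4a proteins are small membrane proteins that cross the membrane several times and sit beside immune receptors, whose signals and transport they adjust. The best known are Ms4a1, the CD20 antigen of B cells, and Ms4a2, the beta chain of the high-affinity IgE receptor of mast cells and basophils. Ms4a4a and Ms4a7 are known from macrophages, Ms4a4b from T and NK cells, and the Ms4a6 genes from monocytes and macrophages. In mice the Ms4a4 and Ms4a6 groups hold several close copies, so the question for sorted dendritic cells is which copy each subset uses.

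All 7 genes lie in 1 run on chromosome 19 (build GRCm38). From the start of Ms4a7 at 11321039 to the end of Ms4a6d at 11604849, the order is Ms4a7, Ms4a4a, Ms4a4c, Ms4a4b, Ms4a6c, Ms4a6b, Ms4a4d and Ms4a6d. Ms4a7 and Ms4a6d are on the minus strand and the others on the plus strand. Over the coding sequence, Ms4a4b and Ms4a4c were 91.78% identical, Ms4a6b and Ms4a6c 86.34%, Ms4a6b and Ms4a6d 81.83%, and Ms4a6c and Ms4a6d 79.69%, while every other pair lay between 60.86% and 69.89%. Identical stretches as long as a read (76 bases) were few: at most 3.663% of such windows in the transcripts of any member were shared with another gene, except in Ms4a6c, where 47.65% were. The windows of Ms4a6c were shared with Ms4a6b, Prdm11 and BE692007, and the last is annotated on the other strand over 53.07% of the exon bases of Ms4a6c, so its level is uncertain wherever reads were divided between these genes. The files were aligned to a reference of another strain than Balb/C, and whether strain differences moved reads between these copies was not tested.

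The neighbours Ms4a6b and Ms4a6c, both higher in DC1b and DC2 than in DC1a cells, also share sequence upstream of their starts, which is why these stretches are shown. They are printed from 250 bases before the RefSeq start up to the first base that any GENCODE transcript places in an exon, in RefSeq's GRCm38.p6 sequence of the plus strand. The Ms4a6c stretch is chr19:11469118-11469365 and lies before the gene. The Ms4a6b stretch is chr19:11518309-11518452 and lies in an intron of a longer Ms4a6b transcript. Capitals mark a match to GAAANNGAA and, after it, a run of 48 bases that is identical in both genes.
Ms4a6c: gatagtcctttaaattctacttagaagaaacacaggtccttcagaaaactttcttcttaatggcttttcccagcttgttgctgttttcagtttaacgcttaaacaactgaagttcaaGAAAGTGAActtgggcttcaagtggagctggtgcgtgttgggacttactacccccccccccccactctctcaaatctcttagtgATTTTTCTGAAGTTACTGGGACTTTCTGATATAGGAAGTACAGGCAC
Ms4a6b: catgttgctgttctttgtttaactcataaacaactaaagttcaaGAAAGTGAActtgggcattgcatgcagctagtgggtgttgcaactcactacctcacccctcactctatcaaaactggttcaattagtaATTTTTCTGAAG
The identical run starts 49 bases before the RefSeq start of Ms4a6c and 118 before that of Ms4a6b; all but its last base is printed for Ms4a6c, and its first 12 bases for Ms4a6b. Of 32851 promoters in the table (250 bases before to 50 after each start), only those 2 hold the run. Within it lies AGGAAGT, a core letter string of ETS factors such as PU.1, which on either strand is in 9.35% of the promoters. GAAANNGAA, a short form of the letters that interferon regulatory factors bind, is in 8.56% on either strand. It was also found upstream of Ms4a7, and the promoters of Ms4a4a, Ms4a4b and Ms4a4c in the table hold no match. Of the other letter strings searched on both strands, TGANTCA (in 7.81% of promoters) matched Ms4a7 and Ms4a4b, whereas TTCNNNGAA (8.3%), the ETS-IRF composite element (2.72%) and the ISRE core, a longer form of GAAANNGAA (3.44%), matched no member found in the table. The table held 6 of the 7 genes, Ms4a6d being the exception.

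The libraries held 19256447 to 36997890 counts each, so that 3 counts, the floor used here, equal 0.0811 to 0.156 CPM (counts scaled to a library of 1000000 counts). Marker genes of the gates set limits on the labels. Untreated DC1b libraries held the plasmacytoid dendritic cell list (8 genes, all above the floor) at a summed 6357 to 9060.5 CPM, against 61.1 to 445 CPM in the TLI libraries of the same gate. TLI DC1b libraries held the monocyte list (14 genes) at 8856 to 26026 CPM against 4209 to 6296 CPM Untreated, and the neutrophil list (8 genes) at 1402 to 20942 CPM against 0.839 to 19.96 CPM. Of the monocyte list, 13 of 14 fitted log2 folds for TLI in DC1b were positive. Ly6c2 of that list was lower, at 742, 491, 157 and 203 CPM in TLI pools 1 to 4 against 1480 and 2347.5 CPM Untreated. Cd8a and Sirpa, the genes of the sort antigens CD8 and CD172, were 302 and 146 CPM in TLI DC1b pool 1 and 342 and 141 CPM in pool 2. They were 79.0 and 5.10 CPM in pool 3 and 0.327 and 6.55 CPM in pool 4. The RNA of Sirpa in both pools, and of Cd8a in pool 4, thus went against the gate, which was set on surface protein. In TLI DC2, gated as CD172hi, Sirpa was 36.7, 9.22 and 309 CPM in pools 1, 3 and 4, against 252 and 196 CPM Untreated. In Untreated DC1b pool 1, gated as CD172+, it was 13.7 CPM, against 91.0 CPM in pool 2. Cd8a was 41.6 CPM in Untreated DC3 pool 2, gated as CD8-, against 0.410 CPM in pool 1. For these reasons values are given by pool. DC3 libraries, gated as CD8-, held the cDC1 list (10 genes) at 2941 to 3133 CPM Untreated, near DC1a cells (3394 to 3874 CPM) and above DC2 cells (242 to 304 CPM). In bulk libraries, fewer cells of a type cannot be told apart from less RNA per cell.

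The 7 genes were chosen on their CPM in these same libraries, so their levels and folds are descriptions without a test. Summed over the 7 genes, Untreated cells held 109 to 138 CPM in DC1a, 501 to 696 CPM in DC3, 804 to 955 CPM in DC1b and 1797 to 1967 CPM in DC2, and no neighbours in that order overlapped. After TLI the sums were 153 to 184 CPM in DC1a, 748 to 1698 CPM in DC3, 1953 to 2973 CPM in DC1b and 2842 to 6293 CPM in DC2. In each treatment DC1a cells held the least, and the lowest TLI DC2 library lay within the range of TLI DC1b.

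**Figure D1:**
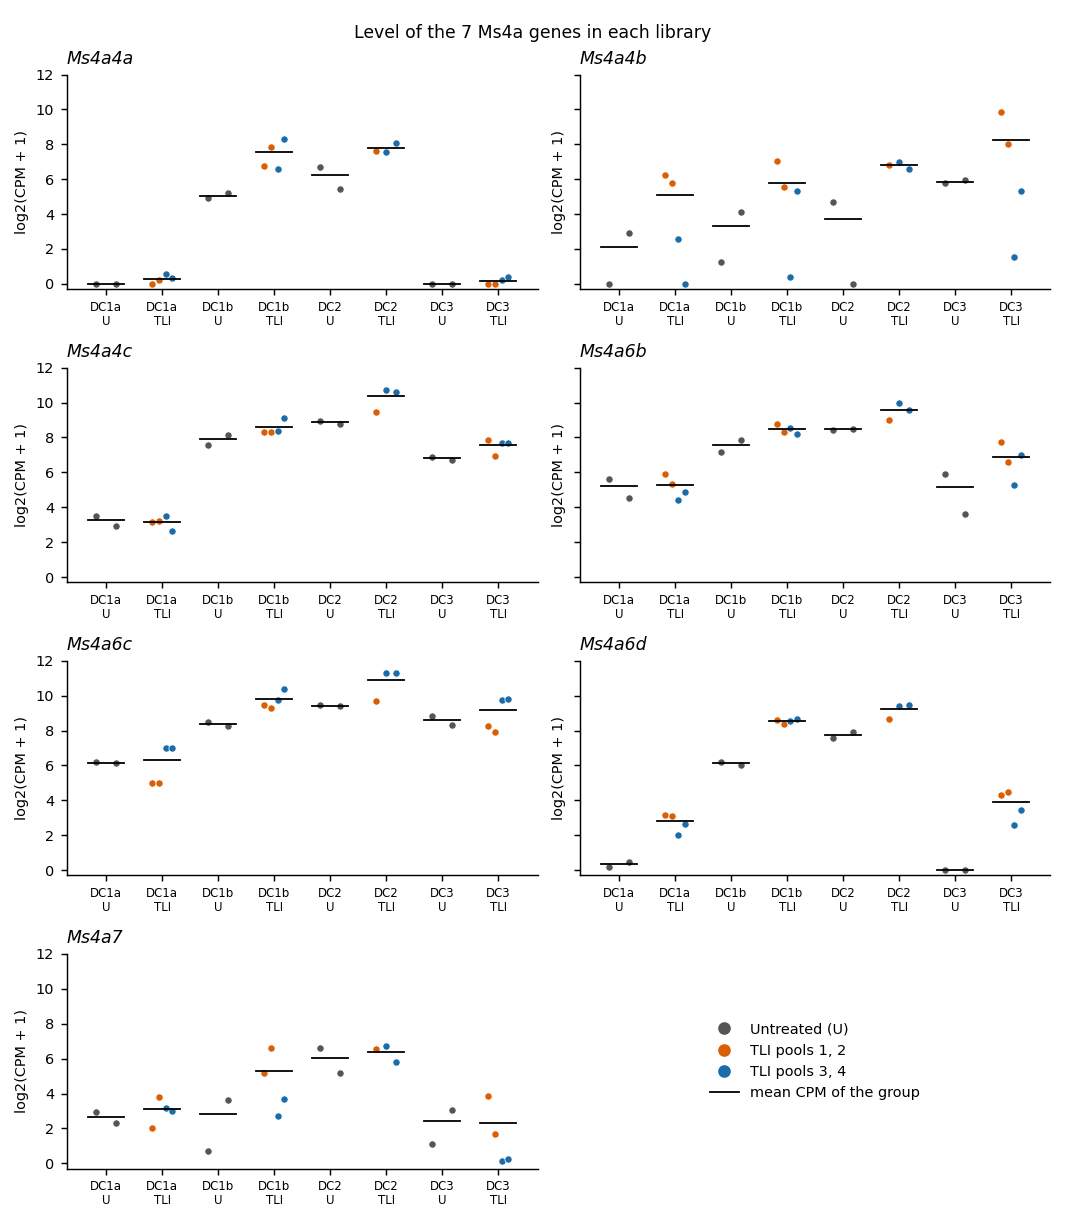
Level of each of the 7 Ms4a genes by library, as log2(CPM + 1), with 1 point per library coloured by treatment and TLI pools and a line at the mean CPM of each group. Ms4a4a and Ms4a6d are at or near 0 in Untreated DC1a and DC3 cells and between 29.0 and 245 CPM in Untreated DC1b and DC2 cells, whereas the points of Ms4a4b spread widely within groups.

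Ms4a4a and Ms4a6d split the gates most sharply. Ms4a4a, a macrophage surface protein that associates with the beta-glucan receptor Dectin-1, had no counts in either Untreated DC1a library or either Untreated DC3 library. In Untreated DC1b cells it stood at 29.0 CPM in pool 1 and 35.7 CPM in pool 2, and in DC2 cells at 105 and 42.0 CPM. Against the floor of 3 counts per library, the DC1b mean was at least 294-fold and the DC2 mean at least 666-fold above DC1a cells, and the DC2 mean at least 578-fold above DC3 cells. DC2 was 2.27 times DC1b, with both DC2 libraries above both DC1b libraries. Ms4a6d showed the same split. It had 0.139 and 0.386 CPM in Untreated DC1a cells and no counts in DC3 cells, but 73.8 and 64.6 CPM in DC1b cells and 187 and 245 CPM in DC2 cells. The DC1b mean was 264 times and the DC2 mean 824 times that of DC1a, and DC2 was 3.13 times DC1b. For both genes, DC1a and DC3 cells fell at the bottom of the order and DC2 cells at the top.

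Ms4a4c, Ms4a6b and Ms4a6c were present in all 4 gates and graded between them. Ms4a4c stood at 10.2 and 6.71 CPM in Untreated DC1a cells, 116 and 105 CPM in DC3, 191 and 285 CPM in DC1b and 496 and 443 CPM in DC2. Each step of that order separated the libraries, and DC2 held 55.4 times the mean of DC1a. Ms4a6b stood at 48.8 and 22.1 CPM in DC1a, 59.2 and 11.1 CPM in DC3, 142 and 231 CPM in DC1b and 343 and 364 CPM in DC2. DC1a and DC3 cells overlapped for Ms4a6b, and DC2 held 9.96 times the mean of DC1a. Ms4a6c stood at 71.8 and 69.7 CPM in DC1a, 366 and 311 CPM in DC1b, 465 and 317 CPM in DC3 and 715 and 668 CPM in DC2. DC1b and DC3 overlapped for Ms4a6c, so DC3 cells stood with DC1b cells for Ms4a6c but with DC1a cells for Ms4a6b, its closest copy by coding sequence.

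Ms4a7, a gene of macrophages and microglia, was set apart in DC2 cells alone among the Untreated gates. Its DC2 libraries held 96.1 and 34.5 CPM. DC1a held 6.76 and 3.90 CPM, DC1b 0.659 and 11.4 CPM, and DC3 1.14 and 7.4 CPM, and these last 3 gates overlapped each other. The DC2 mean was 12.3 times that of DC1a and 10.9 times that of DC1b.

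Ms4a4b, which in T cells associates with the receptor GITR (Tnfrsf18), was the exception to this order. It was highest in DC3 cells, at 54.2 and 60.3 CPM Untreated. DC1a held 0 and 6.6 CPM, DC1b 1.41 and 16.2 CPM, and DC2 24.8 and 0 CPM, so those gates overlapped, and the DC3 mean was 4.61 times that of DC2. Ms4a4c, whose coding sequence is 91.78% identical and which lies next to it, thus had its lowest level where Ms4a4b was also low (DC1a) but its highest in DC2. The Untreated DC3 libraries also held the NK cell list (10 genes) at a summed 507 and 258 CPM, with 3 and 2 of its genes at the floor, against at most 8.76 CPM in the other Untreated libraries. The part of NK cells in the DC3 level was not tested.

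In the fit over all genes (edgeR's quasi-likelihood test, Benjamini-Hochberg adjusted p under 0.05), the members' calls followed these levels, and nothing is read from the counts because the genes were chosen on the same libraries. Between Untreated DC1b and DC1a cells 0.837% of 19597 genes were called, and 4 of the 7 members (Ms4a4a, Ms4a4c, Ms4a6c and Ms4a6d) were called higher in DC1b. Between DC2 and DC1a cells 1.91% were called, and 5 members were higher in DC2, the same 4 and Ms4a6b. Between DC2 and DC1b cells 0.398% were called and no member was by edgeR (4 had an unadjusted p under 0.05, and DESeq2 called Ms4a6d). For 6 of the 7 both DC2 libraries lay above both DC1b libraries, but the share of all genes that did so was not computed. Between DC3 and DC2 cells 0.837% were called, and 4 members (Ms4a4a, Ms4a4c, Ms4a6b and Ms4a6d) were lower in DC3. The fitted log2 fold of Ms4a4c was 4.53 ± 0.48 (standard error) for DC1b over DC1a and 5.58 ± 0.50 for DC2 over DC1a. That of Ms4a6c was 1.96 ± 0.34 and 3.08 ± 0.35. Ms4a4b and Ms4a7 were called in none of the 4 comparisons between Untreated gates, and their fitted standard errors reached 2.42 and 1.67 on the log2 scale. With pools as a replicate block, the calls of Ms4a6b in DC2 against DC1a, and of Ms4a4c and Ms4a6b in DC3 against DC2, were lost. Without the batch term, the calls of Ms4a6c in DC1b and in DC2 over DC1a were lost. So were those of Ms4a6b in DC2 over DC1a, and of Ms4a4c and Ms4a6b in DC3 against DC2. Both calls of Ms4a6b were also lost in most fits that left out a single TLI library. Leaving out either Untreated DC1a library left Ms4a4c and Ms4a6d as the members called in DC1b over DC1a, and leaving out Untreated DC1b pool 1 lost Ms4a6c. Leaving out either Untreated DC2 library, or DC3 pool 2, left Ms4a4a and Ms4a6d in DC3 against DC2.

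Levels of different genes can be compared only per length, here as CPM per kilobase of exon. On that scale the mean of Ms4a6c was first in all 8 groups, from 34.5 CPM per kb in Untreated DC1a to 946 in TLI DC2, with the reservation given above on its reads. In Untreated DC1b pool 2, Ms4a4c was first, and the ratio of Ms4a6c to it was 0.932. Its share of the summed CPM per kb of the 7 genes was 70.4% in Untreated DC1a and 70.9% in Untreated DC3, but 39.0% in DC1b and 36.9% in DC2. In Untreated DC1b and DC2 cells Ms4a4c took 32.1% and 29.4%, Ms4a6d 9.42% and 13.7%, and Ms4a4a 9.14% and 9.62%. Untreated DC1b and DC2 cells thus had a like make-up at different totals. After TLI they differed more: Ms4a4c took 18.4% in DC1b and 30.1% in DC2, Ms4a6d 18.2% and 13.7%, and Ms4a4a 18.8% and 10.4%. The make-up of Untreated DC3, with Ms4a4c at 23.4% and neither Ms4a4a nor Ms4a6d, differed from both DC1a and DC2.

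**Figure D2:**
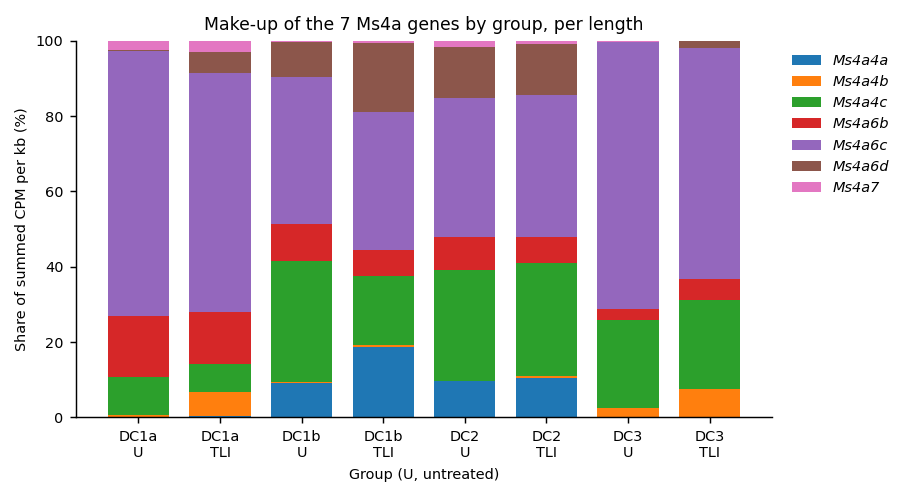
Share of each gene in the summed CPM per kb of the 7 Ms4a genes, in percent, from the group means of CPM divided by exon length (2 libraries per Untreated group, 3 for TLI DC2, 4 for the other TLI groups). Ms4a6c makes up 70.4% of the Untreated DC1a bar and 36.9% of the Untreated DC2 bar, and Ms4a4a and Ms4a6d appear mainly in the DC1b and DC2 bars.

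After TLI, Ms4a6d was higher in every TLI library than in any Untreated library of the same gate, in all 4 gates. The share of all genes separated in this way was not computed, so nothing is read from the separation. In DC1a it stood at 8.09, 7.54, 3.11 and 5.24 CPM in TLI pools 1 to 4, and the TLI mean was 22.8 times the Untreated mean of 0.263 CPM. In DC1b it stood at 393, 329, 368 and 400.5 CPM, and the mean was 5.38 times the Untreated mean of 69.2 CPM. In DC2 it stood at 404, 689 and 699 CPM in pools 1, 3 and 4, and the mean was 2.76 times the Untreated mean of 216 CPM. In DC3 it stood at 18.4, 21.6, 4.99 and 10.1 CPM against no counts Untreated, at least 108-fold above the floor. The order of the gates after TLI put DC2 above DC1b, DC1b above DC3 and DC1a, and DC3 and DC1a overlapped. In TLI DC1b, pools 1 and 2, with the genes of both sort antigens above 100 CPM, overlapped pools 3 and 4, where Sirpa was at most 6.55 CPM.

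As the genes were chosen on these same libraries, the members' calls after TLI are descriptions, and nothing is read from them. Ms4a6d was 1 of the 2 genes called in DC1a after TLI (0.0102% of 19597 genes), 1 of the 81 called in DC1b (0.413%) and 1 of the 5 called in DC3 (0.0255%). It was the only member called in each of these, and in DC2 no member was among the 12 genes edgeR called (0.0612%), although 2 had an unadjusted p under 0.05 and DESeq2 called Ms4a6d. Its fitted log2 fold was 4.79 ± 0.64 in DC1a, 3.01 ± 0.57 in DC1b and 1.86 ± 0.57 in DC2. Without the batch term the call was lost in DC1a and DC1b, in batch 1 alone in DC1b, and with pools as a replicate block (limma voom) in DC1a, while that block called Ms4a6d in DC2 as well. Leaving out either Untreated library of the gate ended the call in DC1a and in DC1b. In DC1a, so did leaving out any of 7 TLI libraries (DC1a pools 1, 2 and 4, DC1b pool 1, DC2 pool 4, and DC3 pools 1 and 4).

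Genes of other cells also differed between treatments. The neutrophil list had no genes above the floor in Untreated DC1a and DC3 cells, and after TLI its sum was 6.41 to 9.89 CPM in DC1a and 3.93 to 85.0 CPM in DC3, with 2 to 5 of its 8 genes still at the floor. The monocyte list did not move the same way. It was 1043 to 1051 CPM in Untreated DC1a cells against 545 to 2834 CPM after TLI, and 2258 to 3333 CPM against 1546 to 4567 CPM in DC3. In DC1b the monocyte and neutrophil lists were both higher after TLI, as given above. In DC2 the neutrophil list was 1.55 and 1.97 CPM Untreated and 2309, 214 and 110.2 CPM in TLI pools 1, 3 and 4. Between TLI pools, Ms4a6d and the neutrophil list did not keep 1 order. In DC2, pool 1 had the highest list and the lowest Ms4a6d, while in DC1b pool 2 had the lowest of both. Their part in the level of Ms4a6d was not tested.

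**Figure D3:**
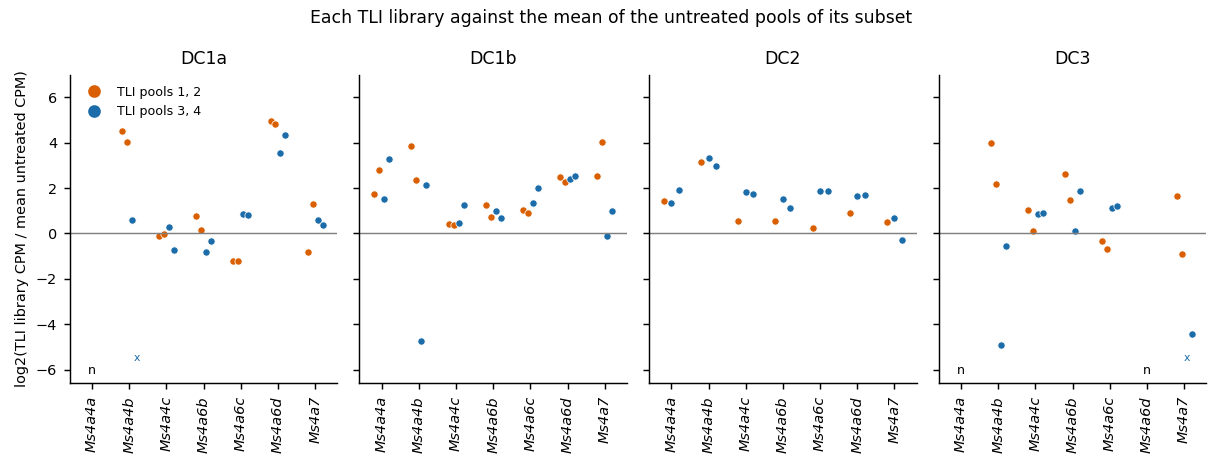
Log2 ratio of the CPM of each TLI library to the mean CPM of the Untreated libraries of the same gate, for the 7 genes, with TLI pools 1 and 2 and pools 3 and 4 in different colours. An n marks a gene with no Untreated counts above the floor and an x a TLI library at the floor; all points of Ms4a6d lie above the line at 0 in DC1a, DC1b and DC2, and the points of Ms4a6c split by pool.

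The other members were higher after TLI mainly in DC1b and DC2. In DC1b, Ms4a4a stood at 107, 227, 94.1 and 312 CPM in pools 1 to 4, 5.71 times the Untreated mean. Ms4a4c stood at 316, 313, 325 and 563 CPM, 1.59 times, and Ms4a6b at 442, 313, 372 and 295 CPM, 1.90 times. Ms4a6c stood at 702, 629, 868 and 1352 CPM, 2.62 times. For these 4 genes and Ms4a6d, all TLI DC1b libraries lay above both Untreated ones, but the share of all genes that did so was not computed. In pools 1 and 2 alone, the means were 167 CPM for Ms4a4a, 315 CPM for Ms4a4c, 378 CPM for Ms4a6b and 666 CPM for Ms4a6c, each again above the Untreated libraries. The macrophage list (14 genes) stood at 217 to 2149 CPM in these libraries against 95.9 to 133 CPM Untreated. Vcam1, a vascular adhesion molecule that splenic macrophages also make, was its 1 gene called higher (log2 fold 8.42 ± 1.63, edgeR adjusted p = 0.0278). Of the monocyte list Cd14 and Lyz2 were called higher, whereas Ly6c2 was lower after TLI, as given above. Their part in the Ms4a levels was not tested.

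In DC2, 6 of the 7 genes were higher in all 3 TLI libraries than in both Untreated libraries, the exception being Ms4a7. The share of all genes separated in this way was not computed, so nothing is read from the number. Ms4a4a stood at 196, 184 and 274 CPM in pools 1, 3 and 4, a mean 2.97 times the Untreated mean. Ms4a4c stood at 690.0, 1690.5 and 1584 CPM, 2.81 times, and Ms4a6b at 521, 1011 and 770.5 CPM, 2.17 times. Ms4a6c stood at 828, 2491 and 2498 CPM, 2.80 times. For Ms4a4c, Ms4a6b, Ms4a6c and Ms4a6d, pool 1 was the lowest of the 3, so the means rest on the batch 2 pools. Pool 1 alone was 1.20 times the Untreated mean for Ms4a6c and 1.47 times for Ms4a4c. In these libraries the monocyte list (6393 to 13744 CPM after TLI, 6547 to 6726 CPM Untreated) and the macrophage list (263 to 2945 CPM, 191 to 364 CPM Untreated) overlapped between treatments, and both were highest in pool 1, where those 4 Ms4a genes were lowest. The cDC2 list went with them, at 1353, 2260 and 2524 CPM in pools 1, 3 and 4 against 1930 and 1846 CPM Untreated. The part of these lists in the Ms4a levels was not tested. In pool 4 alone, the TLI DC2 library with Sirpa above both Untreated libraries, the 6 genes were 2.18 times (Ms4a6b) to 7.74 times (Ms4a4b) the Untreated mean. Ms4a7 stood at 92.2, 103 and 53.9 CPM against 96.1 and 34.5 CPM Untreated, and overlapped.

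Ms4a6c split by batch in DC1a and DC3 cells. In DC1a cells it stood at 30.4 and 30.8 CPM in TLI pools 1 and 2, below both Untreated libraries, and at 126 and 125 CPM in pools 3 and 4, above both. In DC3 cells it stood at 311 and 244 CPM in pools 1 and 2, below both Untreated libraries, and at 858 and 894 CPM in pools 3 and 4, above both. Its fitted log2 fold for TLI in DC1a was -0.80 ± 0.30 with a batch term and 0.29 without one. In DC2 it was 0.32 ± 0.32 with the term and 1.50 without. Ms4a6b, the closest copy, did not split in this way: in DC1a its TLI pools 1 and 2 held 59.9 and 39.7 CPM and its pools 3 and 4 held 20.1 and 28.3 CPM. The ratio of Ms4a6c to Ms4a6b per kb in TLI DC1a was accordingly 1.11 and 1.70 in pools 1 and 2 and 13.7 and 9.64 in pools 3 and 4. Since no Untreated library was in batch 2, the batch 2 TLI values cannot be told apart from the batch.

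In DC1a and DC3 cells the remaining members overlapped between treatments, except Ms4a4c in DC3. Ms4a4c in DC3 stood at 227, 119.9, 202 and 207 CPM in TLI pools 1 to 4, all above the Untreated 116 and 105 CPM, with a mean 1.71 times theirs. In DC1a it stood at 7.81, 8.31, 10.4 and 5.19 CPM after TLI, around the Untreated 10.2 and 6.71 CPM. Ms4a4a stayed at or below 0.487 CPM in all TLI DC1a and DC3 libraries, while it reached 312 CPM in DC1b. Ms4a6b in DC3 stood at 214, 96.7, 38.5 and 127 CPM after TLI, and of these pool 3 lay between the Untreated 59.2 and 11.1 CPM. Ms4a7 in DC1b stood at 34.8 and 97.6 CPM in TLI pools 1 and 2, above both Untreated libraries, but at 5.65 and 11.9 CPM in pools 3 and 4. In DC3 it stood at 13.4 CPM in TLI pool 1, and at 2.25, 0.105 and 0.199 CPM in the others.

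Ms4a4b varied widely within the TLI groups of DC1a, DC1b and DC3. In DC3 it stood at 915, 263, 1.93 and 39.5 CPM in TLI pools 1 to 4, around the Untreated 54.2 and 60.3 CPM. In DC1a it stood at 74.3, 53.6, 5.0 and 0 CPM, and in DC1b at 129, 45.0, 0.332 and 38.6 CPM. Pools 1 and 2, which were batch 1, were thus the highest in each of these gates. Cell content and batch cannot be told apart here, and the part of NK or T cells in the level of Ms4a4b was not tested. The NK cell list was also highest in pools 1 and 2. That list summed to 4103, 1122, 59.9 and 89.4 CPM in TLI DC3 pools 1 to 4, to 299.8, 250.04, 49.4 and 6.71 CPM in DC1a, and to 469.6, 205, 40.6 and 35.6 CPM in DC1b. The T cell list (12 genes) was likewise highest in pools 1 and 2, at 371 and 234 CPM in DC3, 122.3 and 122.0 CPM in DC1a, and 247 and 98.8 CPM in DC1b.

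DC2 cells went another way. Ms4a4b stood at 110.4, 124 and 96.1 CPM in TLI pools 1, 3 and 4, against 24.8 and 0 CPM Untreated, so all 3 TLI libraries were higher, and the mean was 8.86 times the Untreated mean. The NK cell list was 217 CPM in pool 1 but 2.53 and 0.241 CPM in pools 3 and 4, where Ncr1, a defining gene of NK cells, had no counts. Of the CD3 chains that define T cells, Cd3e and Cd3g had no counts in pools 3 and 4, but Cd3d stood at 8.86 and 35.8 CPM, against 29.6 CPM in pool 1. The T cell list summed to 23.7 and 81.2 CPM in pools 3 and 4, with 8 and 7 of its 12 genes at the floor. The part of NK or T cells in the level of Ms4a4b in DC2 was not tested. Ms4a4b was not called after TLI in DC2 or in any other gate.

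**Figure D4:**
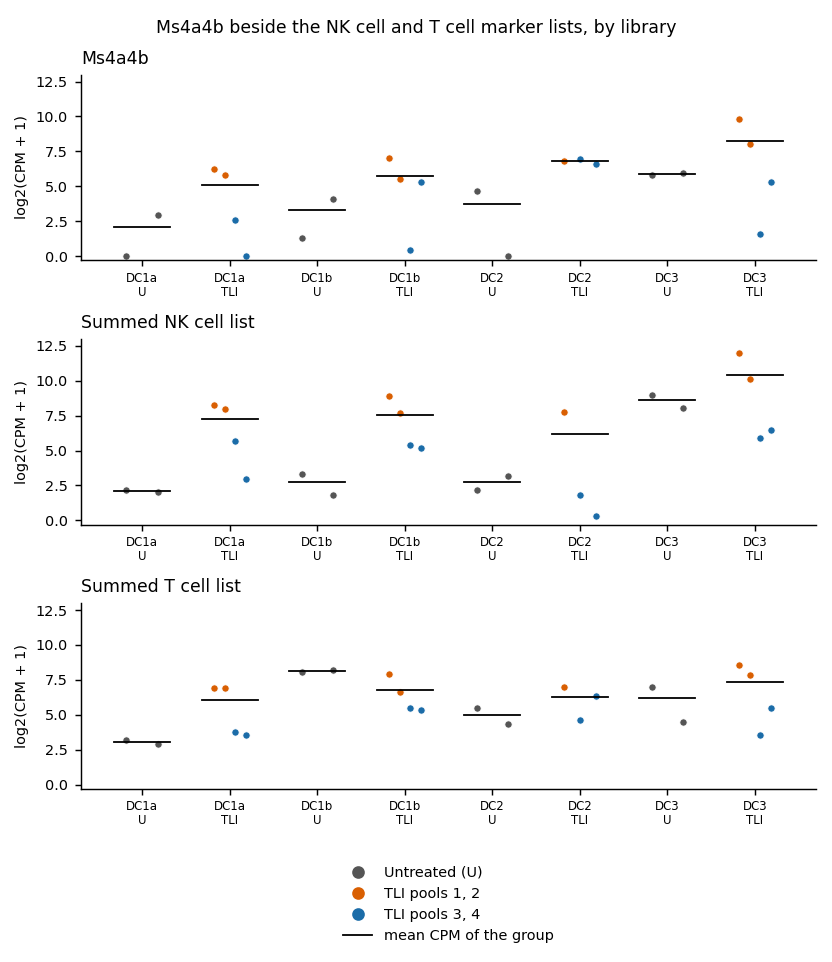
Ms4a4b (top) beside the summed CPM of the NK cell list (10 genes) and the T cell list (12 genes), as log2(CPM + 1), with 1 point per library and a line at the mean CPM of each group. TLI pools 1 and 2 are the highest TLI points in DC1a, DC1b and DC3 in the panels of the NK cell and T cell lists, whereas in DC2 pools 3 and 4 have Ms4a4b at 124 and 96.1 CPM with the NK cell list at 2.53 and 0.241 CPM.

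The rest of the family was mostly silent. Ms4a4d, which lies between Ms4a6b and Ms4a6d, had no counts in any of the 23 libraries, nor had Ms4a12. Ms4a5, Ms4a13, Ms4a15 and Ms4a18 stayed at or below 0.399 CPM. Ms4a1 (CD20) did not exceed 19.6 CPM in any library, and Ms4a2 did not exceed 5.07 CPM. Ms4a3, a gene of granulocyte and monocyte progenitors, had no counts in Untreated DC1b cells and stood at 122, 19.4, 0 and 119 CPM in TLI pools 1 to 4. That difference was not called (edgeR quasi-likelihood test, adjusted p = 0.288), and the same libraries held the neutrophil list at 20942, 1402, 1744 and 9202 CPM. Ms4a8a was between 8.69 and 20.8 CPM in pools 1 to 3 of TLI DC1b and had no counts in pool 4 or in Untreated DC1b. Ms4a14 reached 11.9 CPM in TLI DC2 pool 1 and did not exceed 0.142 CPM elsewhere. Ms4a10 reached 28.4 CPM in TLI DC1b pool 3 and 18.9 CPM in Untreated DC3 pool 2, and was at most 2.54 CPM elsewhere. Of the 12 other Ms4a genes, 5 passed the filter on low counts and none was called by edgeR in any of the 8 comparisons. An unadjusted p under 0.05 was reached by Ms4a3 and Ms4a8a after TLI in DC1b and by Ms4a1 after TLI in DC3.

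Tmem176a and Tmem176b, related membrane proteins encoded on opposite strands of chromosome 6 with 81 exon bases in common, were also highest in DC2 among the Untreated gates. After TLI the mean of Tmem176a was 178 CPM in DC1b and 135 CPM in DC2. Tmem176b stood at 663 and 644 CPM in Untreated DC2 against 158 and 74.5 CPM in DC1a, and was called higher (log2 fold 2.28 ± 0.48, edgeR adjusted p = 0.0172). Both fell between DC2 and DC3, Tmem176a by 3.82 ± 0.71 on the log2 scale (adjusted p = 0.0135) and Tmem176b by 2.89 ± 0.49 (adjusted p = 0.00649). After TLI neither was called in any gate. In DC2, Tmem176a stood at 156, 124 and 123 CPM against 378 and 372 CPM Untreated, lower in CPM where 6 Ms4a genes were higher. With the batch term in the fit it was not lower, at a log2 fold of 0.22 ± 0.66. Tmem176b spanned 390 to 707 CPM in TLI DC2 against 644 to 663 CPM Untreated, and overlapped.

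**Figure D5:**
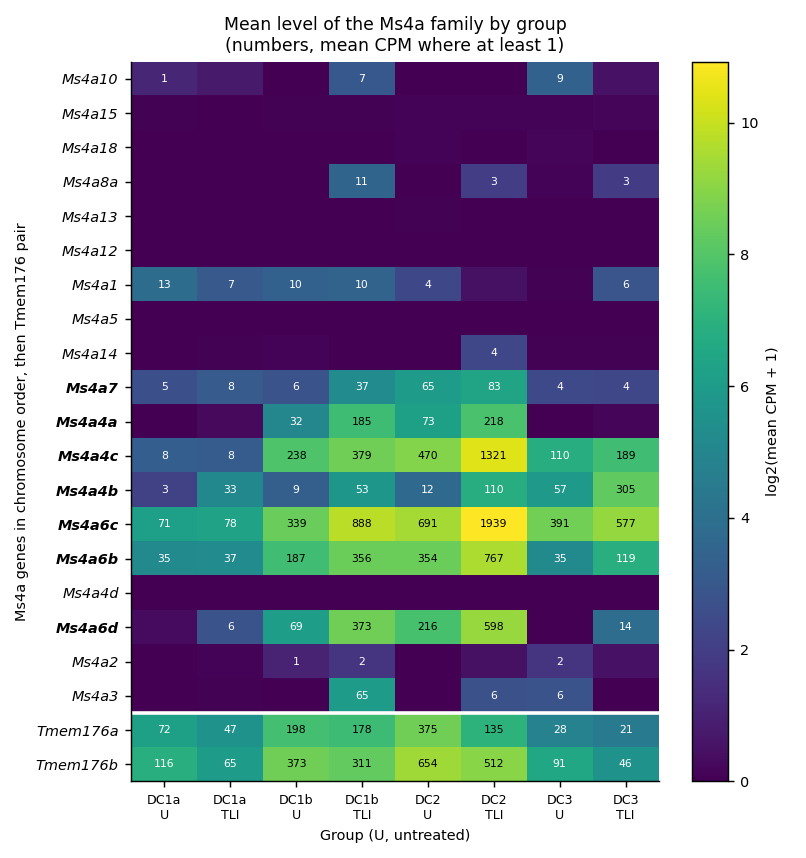
Mean CPM of the 19 Ms4a genes in chromosome order and of Tmem176a and Tmem176b, by group, coloured by log2(mean CPM + 1) with the mean CPM printed where it is at least 1; the 7 genes of the report are in bold. Among the Ms4a genes the signal is confined to the stretch from Ms4a7 to Ms4a6d, apart from Ms4a3 in TLI DC1b and levels of at most 13.5 CPM in other Ms4a genes, and Ms4a4d within that stretch is at 0. Tmem176a and Tmem176b reach means of 375 and 654 CPM in Untreated DC2.

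Receptors and adaptors reported to work with Ms4a proteins were followed as a list of 13 genes, all of which were tested. In Untreated DC1b against DC1a cells 3 rose: Fcer1g, the common Fc receptor gamma chain (log2 fold 3.40 ± 0.40, adjusted p = 0.000356), Fcgr3, a low-affinity IgG receptor (6.66 ± 1.19, adjusted p = 0.0100), and the adaptor Tyrobp (2.44 ± 0.40, adjusted p = 0.00532), all by edgeR's quasi-likelihood test. In DC2 against DC1a cells 2 rose, Fcer1g (3.89 ± 0.40, adjusted p = 5.91e-05) and Fcgr3 (7.69 ± 1.24, adjusted p = 0.00280). None was called between DC2 and DC1b (2 at an unadjusted p under 0.05). In DC3 against DC2 cells 3 fell: Clec7a, which encodes Dectin-1 (by 4.60 ± 1.05 on the log2 scale, adjusted p = 0.0488), Fcgr3 (by 6.42 ± 1.17, adjusted p = 0.0115) and the IgG receptor Fcgr4 (adjusted p = 0.00142). The median log2 fold of the 13 genes was 2.72 for DC1b over DC1a, against 0.07 over all 19597 genes. It was also 2.72 for DC2 over DC1a, 0.70 for DC2 over DC1b and -1.51 for DC3 over DC2, and 0.18 to 1.29 after TLI. The list was chosen with earlier results of these data known, so these medians are descriptions without a test. None of the 13 was called by edgeR after TLI in any gate, with 1 to 5 a gate at an unadjusted p under 0.05.

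Clec7a, partner of Ms4a4a, followed the same order of gates, with Untreated means of 21.9 CPM in DC1a, 175 CPM in DC1b, 325 CPM in DC2 and 13.8 CPM in DC3. Unlike Ms4a4a it was detected in every gate. After TLI its DC2 libraries spanned 249.9 to 402 CPM, overlapping the Untreated 250.3 to 401 CPM, where Ms4a4a did not overlap. Tnfrsf18, partner of Ms4a4b in T cells, did not follow Ms4a4b: its Untreated DC3 mean was 12.2 CPM against 17.6 CPM in DC1a.

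Marker lists of other dendritic cells and of myeloid cells gave the frame for these patterns. Of the monocyte list, 4 of 14 genes rose in Untreated DC1b over DC1a cells, Ly6c2 most (log2 fold 6.13 ± 0.75, adjusted p = 0.000500), with Spn, Ccr2 and Lyz2, and 2 rose in DC2 over DC1a, Spn and Lyz2. Between DC2 and DC1b cells 1 gene of the list was called, lower in DC2. Ly6c2 stood at 19.6 and 21.4 CPM in Untreated DC2 against 1480 and 2347.5 CPM in DC1b. Between DC3 and DC2 cells Fcgr4 and Lyz2 fell. Of the macrophage list 12 of 14 genes were tested, and none was called by edgeR between Untreated gates, with 1 to 4 a comparison at an unadjusted p under 0.05. Of the type I interferon response list (16 genes), Rtp4 was called higher in DC2 than in DC1a cells (adjusted p = 0.0271), and no other gene of it was called in any of the 8 comparisons, with 3 to 7 a comparison at an unadjusted p under 0.05. Of the cDC2 list, Cd209a rose in DC1b (5.64 ± 0.64, adjusted p = 0.000312) and in DC2 (6.02 ± 0.66, adjusted p = 9.20e-05) over DC1a, Klf4 and Sirpa also rose in DC2 over DC1a, and Cd209a fell between DC2 and DC3. Of the cDC1 list, 6 of 10 genes fell in DC2 against DC1a, among them Clec9a (by 8.90 ± 0.51 on the log2 scale, adjusted p = 5.67e-08), and 4 rose in DC3 against DC2, Clec9a again included, where 4 of the Ms4a genes were lower. Batf3 and Naaa fell in DC1b against DC1a, and Clec9a, Irf8 and Naaa fell in DC2 against DC1b. After TLI, Clec9a and Naaa rose in DC2. Of the plasmacytoid list, Tcf4 rose in DC1b over DC1a, was lower in DC2 than in DC1b, and fell after TLI in DC1b (by 3.90 ± 0.52, adjusted p = 0.00294). Of the B cell list only Cd79b was called (lower in DC2 than in DC1b, higher in DC3 than in DC2, and higher after TLI in DC2). No gene of the T cell, NK cell or neutrophil lists was called by edgeR in any of the 8 comparisons. At an unadjusted p under 0.05 there were 0 to 6 of 12, 0 to 7 of 10 and 0 to 6 of 8 genes a comparison.

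The genes most like each member were taken as the 3 with the smallest mean absolute difference between centred log2 CPM over the 8 group means, among 19596 other tested genes. Ms4a4c was closest to S100a4 (mean difference 0.31), Clec4a2 (0.39) and Emb (0.51), against a median of 2.15 over all genes. Ms4a6c was closest to Irf2bpl (0.33), Fry (0.34) and Ifitm3 (0.36), and Ms4a6b to Slc41a3, Gm43181 and Ccl3 (0.43 to 0.44). Ms4a6d was closest to Mgst1 (0.93), Pira2 (0.99) and Fcgr3 (1.05), against a median of 3.88. Ms4a4a was closest to Apoc2 (0.60), Fabp4 (0.73) and Pilrb1 (0.76), and Ms4a7 to Pcyt1b, Ccdc112 and Pkd1l2 (0.59 to 0.64). Ms4a4b was closest to Gm38843 (0.61), Rnf113a1 (0.78) and Igkv4-63 (0.80). No member was among the 3 nearest genes of another. Measured over the 23 libraries instead, none of the 3 genes was kept for Ms4a4b, Ms4a6b or Ms4a7.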

How the data were processed

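The deposited table gives estimated counts per gene as whole numbers. Per the labels, the authors trimmed reads with Trimmomatic, aligned them with HISAT2 to GRCm38 and assembled and counted with StringTie. Strand handling is not given in the sources used here. A test for counts had been planned and was used on these estimated counts as deposited.

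Symbols, exon lengths and positions came from GENCODE M21, which named 47224 of 47729 identifiers, and promoters from RefSeq (GRCm38.p6). CPM used total counts. Group differences were fitted with edgeR 4.0.16 (quasi-likelihood test, R 4.3.3) on all 23 libraries, with 8 groups and the labelled batch as terms, TMM scaling (factors 0.840 to 1.18) and filterByExpr, which kept 19597 genes, all 7 members among them. Alternatives used DESeq2 1.42.0 and limma 3.58.1. Fits were tested on simulated data.

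The members and gene lists were chosen with earlier results of these data known. The text names the 7 members, every other Ms4a gene and the Tmem176 pair, the 3 genes most like each member, and up to 4 called genes per list and comparison, largest change first. The lists covered reported Ms4a partners, T, NK and B cells, monocytes, macrophages, neutrophils, cDC1, cDC2, plasmacytoid dendritic cells and the type I interferon response. Values are mean ± standard error where fitted. Libraries are separate sorts from 2 Untreated and up to 4 TLI pools, so p-values rest on few pools. Replicates of a group differed by far more than counting noise (chi-square per degree of freedom 80.1 to 1119.7), so each counted as its own sample. Pools pair the gates of a treatment by the labels. The residuals of same-pool libraries correlated at -0.006 to 0.016 in Untreated and -0.162 to 0.067 in TLI libraries.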

Additional observations from a re-analysis of the deposited data

Results flagged for a closer look

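Among 21 checks of a member in a TLI group of 4 libraries, 2 values stood apart from the other 3, where chance flags about 1 in 20. Ms4a4c in TLI DC1b pool 4 was 563 CPM, with the other pools between 313 and 325 CPM, and without it the group still lay above both Untreated libraries. This is the library with Cd8a at 0.327 CPM. Ms4a7 in TLI DC3 pool 1 was 13.4 CPM, with the others between 0.105 and 2.25 CPM. The same library had the highest Ms4a4b (915 CPM) and NK cell list (4103 CPM) of the 23.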

How the results depend on the processing

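The counts of genes called moved with the method far more than the members' values did. DESeq2 called 1260, 1893, 1072 and 1499 genes in the Untreated comparisons (in the order DC1b over DC1a, DC2 over DC1a, DC2 over DC1b, DC3 over DC2) and 748, 1263, 892 and 730 after TLI (in the order DC1a, DC1b, DC2, DC3), against 164, 375, 78 and 164 and 2, 81, 12 and 5 with edgeR. Without a filter on low counts, the counts were 128 for DC2 over DC1b, 254 for DC3 over DC2, and 31, 167, 72 and 60 after TLI. With genes of at least 1 CPM on average, they were 21 for TLI in DC2 and 10 for TLI in DC3. In batch 1 alone they were 4 in DC1b, 7 in DC2 and 2 in DC3. Without the batch term they were 59, 125, 36 and 68 in the Untreated comparisons and 0, 19, 7 and 2 after TLI, where the 0 in DC1a stood beside 759 genes at an unadjusted p under 0.05 (edgeR). With pools as a replicate block, limma voom called 40, 737, 163 and 113 genes after TLI, and edgeR 161, 321, 83 and 141 in the Untreated comparisons. The cause of these differences was not tested. RLE scaling and the 8 Untreated libraries fitted alone kept all counts within 1.5 times, but calls of members were lost in both. In the Untreated libraries alone these were Ms4a6b in DC2 over DC1a, and Ms4a4c and Ms4a6b in DC3 against DC2. With RLE scaling it was Ms4a6b in DC3 against DC2.

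Leaving out 1 library at a time gave 20 to 200 calls for DC1b over DC1a, 90 to 452 for DC2 over DC1a, 28 to 100 for DC2 over DC1b and 60 to 204 for DC3 over DC2. After TLI it gave 0 to 15 in DC1a, 3 to 102 in DC1b, 6 to 43 in DC2 and 2 to 13 in DC3. The lowest counts between Untreated gates came without an Untreated library of the gates compared, which leaves 1 library in that group, assumed to vary like the others. No member called in the main fit changed sign under any of these alternatives. The members were chosen on these libraries, so how far their calls held is a description only. The number of members called higher in DC1b than in DC1a was 2 to 4 over the libraries left out, and in DC2 than in DC1a 4 or 5. The number called lower in DC3 than in DC2 was 2 to 4. The call of Ms4a6d after TLI held in DC3 without any 1 library, in DC1b in 21 of 23 cases and in DC1a in 14 of 23. The calls of Ms4a6b in DC2 over DC1a and in DC3 against DC2 were lost in most fits without a single TLI library. Of the 3 genes most like each member, 1 to 3 were kept with a prior count of 0.5. At 3 counts or fewer, below 0.156 CPM, levels cannot be ranked.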

Other observations

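The per-kilobase ratio of Ms4a6c to Ms4a4c was between 1.03 and 1.35 in DC2 cells, over the 5 libraries of both treatments, while in DC1a cells it ranged from 3.17 to 20.5. The ratio of Ms4a4c to Ms4a6d per kilobase was 2.56 and 4.37 in Untreated DC1b cells and 0.798 to 1.39 in the 4 TLI DC1b libraries, which did not overlap. In DC2 cells the same ratio was 2.62 and 1.79 Untreated and 1.69 to 2.43 after TLI, which overlapped. Both ratios use reads of the same library, so they do not depend on its depth.

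The B cell list (10 genes) and Ms4a1 did not go together. In Untreated DC3 cells the list summed to 341 and 162 CPM, with Ms4a1 at 0 and 0.118 CPM, while in Untreated DC1a cells the list summed to 8.09 and 26.4 CPM with Ms4a1 at 16.3 and 10.6 CPM.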
